A study of Mus musculus with 9 samples.

Results

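Mouse neural stem cells treated with 1 short hairpin RNA against Phf2, sh900, were compared directly with the same cells treated with another hairpin against Phf2, sh902. The comparison used 6 of the 9 RNA-seq libraries of the series, 3 per hairpin, and none of the 3 libraries treated with a non-targeting hairpin. Libraries were chosen by the treatment in their labels and paired by the rest of the title: each hairpin had 1 library without a date, 1 with 30_08 and 1 with 03_09. The cells were primary embryonic neural stem cells, labelled as from the subventricular zone of the brain, grown on laminin with FGF at 10 ng/mL and EGF at 20 ng/mL, and RNA was taken 3 days after treatment. The labels used here give no strain, sex or embryonic age, and no vector or selection for the hairpins. What the dates mark is not stated, nor whether each library had its own culture or animal. The p-values therefore cover only variation among these 6 libraries, part of which may be technical.

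PHF2 belongs to the KDM7 family of proteins, which hold a PHD finger that binds a methylated tail of histone H3 and a Jumonji domain related to those of histone lysine demethylases. A short hairpin RNA is cut by DICER1 into a small RNA that guides an Argonaute protein to transcripts with matching bases. Hairpins against different stretches of 1 transcript share that target but not their sequence. Neural stem cells of the subventricular zone divide in response to FGF and EGF, and give rise to neurons, astrocytes and oligodendrocytes.

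All 6 libraries held 23212472 to 32392496 estimated counts, and 16707 of 54232 genes passed edgeR's filter on low counts and were tested. Levels are in CPM, a gene's estimated counts scaled to the library's total, and are listed in the order undated, 30_08, 03_09. Log2 fold changes are sh902 over sh900, so a positive value is higher in sh902, and are given ± SE from the fit that pairs the libraries by label. A gene is called at a Benjamini-Hochberg adjusted p under 0.05 over all genes tested. Marker genes of neural stem cells were present in every library: Nes, which encodes the intermediate filament nestin, stood at 1103, 1464 and 600.1 CPM with sh900 and 1205, 1973 and 541 CPM with sh902, and Sox2, a transcription factor of neural stem cells, at 208, 191 and 336 CPM with sh900 and 177, 167 and 264 CPM with sh902. Some markers from outside the neural lineage were absent: C1qa, C1qb, C1qc and Tyrobp of microglia and Cdh5 of endothelium had 0 counts in all 6 libraries. The summed level of the 12 endothelial markers was 7.93 to 15.2 CPM with sh900 and 5.95 to 12.2 CPM with sh902. That of the 15 microglial markers was 29.5 to 42.9 CPM with sh900 and 33.1 to 44.8 CPM with sh902. Other sums were higher. In the same order, they were 289 to 444 and 231 to 273 CPM for mural markers, and 112 to 237 and 157 to 261 CPM for fibroblast markers. Xist, the RNA of the inactive X chromosome, ranged from 792 to 1482 CPM, and the 4 genes of the Y chromosome in the list were at 0 in all 6.

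Phf2 itself (ENSMUSG00000038025, chromosome 13, 48801750 to 48871119, minus strand, GRCm38) was not called different between the hairpins. Its level was 19, 13.5 and 26.8 CPM with sh900 and 25.7, 17 and 29.2 CPM with sh902. At each label the sh902 library was the higher one, by a log2 ratio of 0.34, 0.22 and 0.11, while the ranges of the hairpins overlapped. The log2 fold change was 0.22 ± 0.12 (SE, edgeR adjusted p = 0.243). A two-sided exact sign-flip permutation test of the paired log2 ratios gave p = 0.25, the smallest that 3 pairs allow.

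The other KDM7 genes and Arid5b were called. Phf8, the X-linked KDM7 demethylase, was lower with sh902: it stood at 68.6, 66.2 and 59.9 CPM with sh900 and 41.3, 38.4 and 48 CPM with sh902, with no overlap, at -0.68 ± 0.14 (SE, edgeR adjusted p = 0.0253). Kdm7a, the third KDM7 member, went the other way. Its level was 85.3, 69.9 and 99.7 CPM with sh900 and 149.6, 213 and 127 CPM with sh902, again with no overlap, at 0.85 ± 0.21 (SE, edgeR adjusted p = 0.0418). Arid5b, a DNA-binding protein known as a partner of PHF2, stood at 86.7, 85 and 70.4 CPM with sh900 and 54, 60.1 and 57.5 CPM with sh902, every sh900 library above every sh902 library, at -0.56 ± 0.12 (SE, edgeR adjusted p = 0.0307). The calls of Phf8 and Kdm7a were lost when either undated library was left out, and that of Arid5b also without the 30_08 library of sh900.

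**Figure D1:**
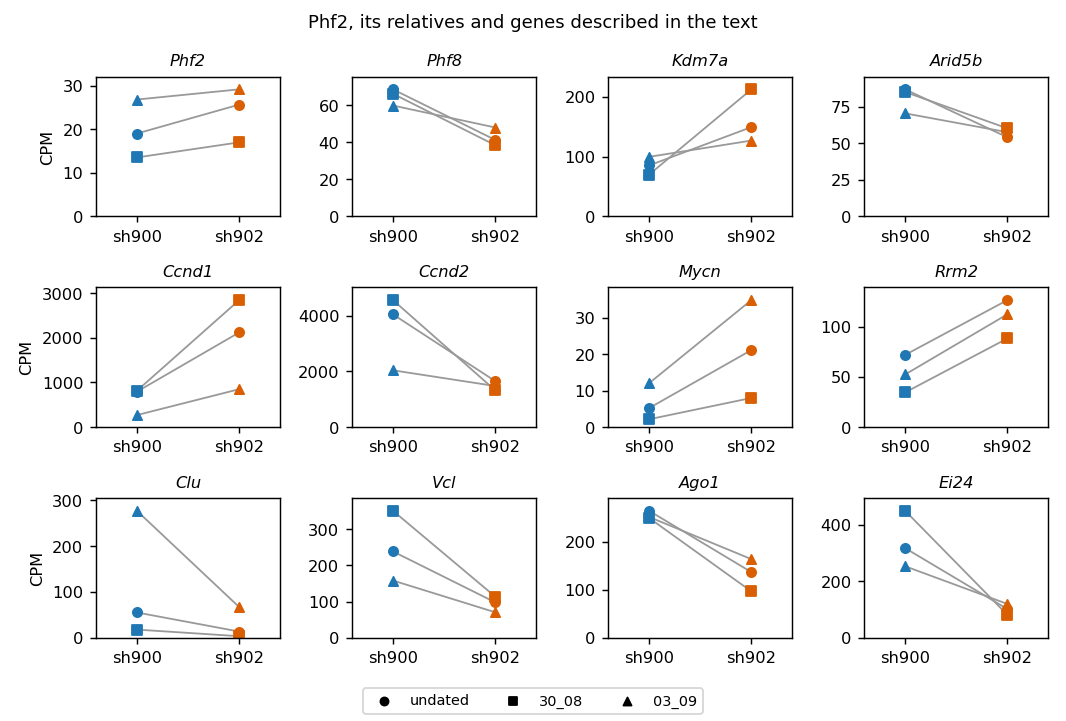
CPM of 12 genes in the 3 sh900 (blue) and 3 sh902 (orange) libraries, with the pair of each label joined by a grey line and the label shown by the marker shape; each axis starts at 0. Phf2 is not called (log2 fold change 0.22), while Ccnd1 (1.56) and Ei24 (-1.80) differ in opposite directions at all 3 labels.

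The hairpins differed at 2595 of 16707 genes tested (15.5%). Of these, 1100 were higher in sh902 (6.58% of genes tested) and 1495 were higher in sh900 (8.95%). The change was at least 2-fold for 760 called genes, 295 higher in sh902 and 465 higher in sh900, and at least 4-fold for 112. The direction was the same at all 3 labels for 2592 of the 2595, against 54.8% of all genes tested. The fit pairs the libraries by these labels, so it favours genes with 1 direction, and this count is not separate evidence. At 1719 called genes every library of 1 hairpin lay above every library of the other. Over all genes tested, sh902 lay wholly above sh900 at 14.3% and sh900 wholly above sh902 at 9.7%. The median size of the log2 fold change was 0.30 over all genes tested and 0.77 over those called.

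These calls depend on the pairing by label. Without the term for the label edgeR called 0 genes at an adjusted p under 0.05, with 2712 at an unadjusted p under 0.05 and a smallest adjusted p of 0.0968. They also depend on the undated pair, since leaving out either undated library leaves only the dated pairs: 718 genes were called without the undated sh900 library and 425 without the undated sh902 library. The undated libraries share the absence of a date and no stated label.

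The label accounted for more of the variance than the hairpin. Over the 500 most variable genes, 72.6% of the sum of squares of log2 CPM lay between labels, 15.6% between hairpins and 11.8% in the remainder. On the first principal component, with 61.3% of the variance, both 30_08 libraries were lowest (-43.6 with sh900 and -37.8 with sh902) and both 03_09 libraries highest (38.0 and 31.4). The second component, with 17%, placed sh900 between -27.3 and -5.50 and sh902 between 8.62 and 19.6. Each label's sh902 library was above its sh900 library on that axis.

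**Figure D2:**
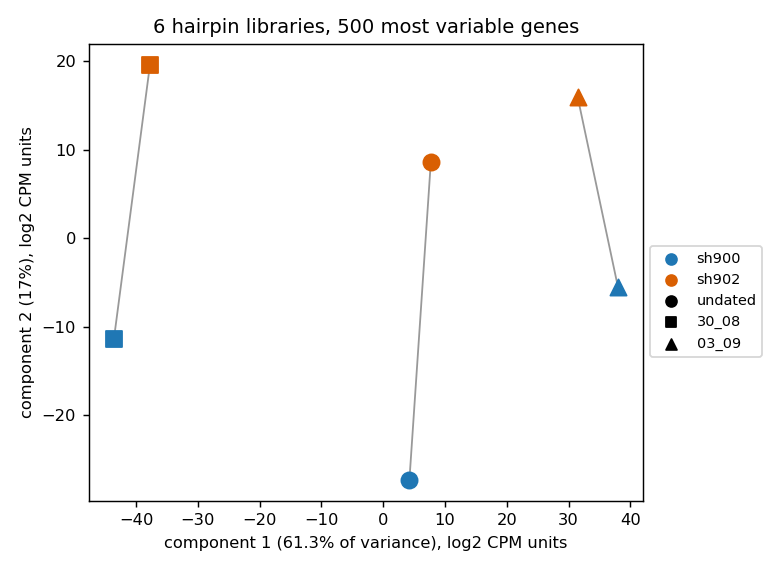
The 6 libraries on the first 2 principal components of the 500 most variable genes (log2 CPM), coloured by hairpin and shaped by label, with grey lines joining the libraries of a label. The horizontal axis (61.3% of the variance) orders the labels and the vertical axis (17%) places all sh902 libraries (8.62 to 19.6) above all sh900 libraries (-27.3 to -5.50).

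Across all genes tested, the log2 ratio of sh902 to sh900 at 1 label correlated with that at another at r = 0.562 (undated with 30_08), 0.433 (undated with 03_09) and 0.352 (30_08 with 03_09). These are correlations across genes, which are not independent replicates. Of all genes tested, 54.8% had the same sign at all 3 labels, 4530 higher in sh902 and 4623 higher in sh900. The median size of the ratio was 0.34 on the log2 scale at the undated label, 0.42 at 30_08 and 0.29 at 03_09.

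**Figure D3:**
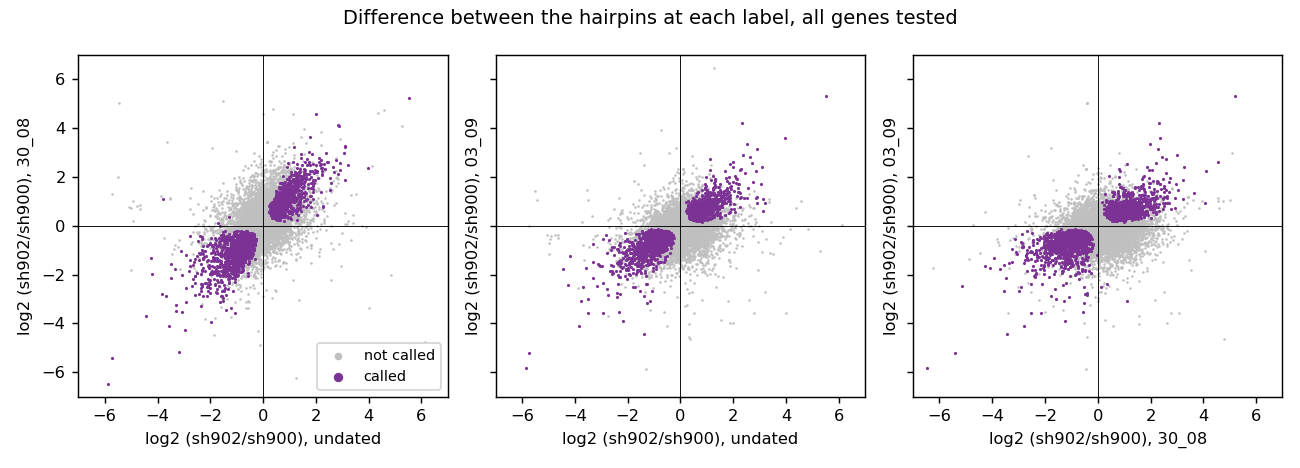
Log2 ratio of sh902 to sh900 at 1 label against that at another, 1 point per gene tested, with called genes in purple and 8 uncalled genes beyond 7 on either axis not shown. Over all genes the undated and 30_08 labels correlate most (r = 0.562).

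Among called genes at 1 CPM or more, those with the largest fold higher in sh902 were led by Tacr1. It encodes the receptor of the neuropeptide substance P (chromosome 6, 82402334 to 82560104) and stood at 0.154, 0.933 and 0.193 CPM with sh900 and 3.69, 5.44 and 3.14 CPM with sh902. Every sh902 library was above every sh900 library, and the difference was 3.42 ± 0.46 (SE, edgeR adjusted p = 0.0109). Ttn, which encodes the giant sarcomere protein titin, stood at 2.78, 4.24 and 4.86 CPM with sh900 and 25.1, 36.4 and 16.1 CPM with sh902, with no overlap, at 2.60 ± 0.28 (SE, edgeR adjusted p = 0.00866). Olfml3, a secreted olfactomedin-like protein, stood at 4.08, 1.76 and 1.43 CPM with sh900 and 28.6, 9.08 and 8.96 CPM with sh902, and Sstr2, a somatostatin receptor, at 2.28, 3.8 and 0.733 CPM with sh900 and 11.8, 17.4 and 3.92 CPM with sh902; both were higher with sh902 in every pair, by 2.55 and 2.24 on the log2 scale. Others of this group were Fam135b (2.89), Olfr461 (2.75), Gda (2.71), which encodes guanine deaminase, Efcab8 (2.59), Dach2 (2.54), Ifi203 (2.49) and Gpld1 (2.36). Of these 11 genes only Gpld1 overlapped between the hairpins, and 7 kept their call in all 6 fits that left out 1 library. The exceptions were Efcab8, lost without the undated sh902 library, Ifi203, lost without the undated or the 30_08 library of sh902, and Olfr461 and Gpld1, each lost without the undated sh902 library or either 30_08 library; Olfr461 was also lost without the undated sh900 library.

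Higher in sh900 by the largest fold was Rdh9 (chromosome 10, 127776386 to 127792697), one of a cluster of retinol dehydrogenase genes of similar sequence, so its counts are uncertain where reads match a relative. Rdh9 had 118, 79 and 71 counts with sh900 and 0 counts in all 3 sh902 libraries. Set against a floor of 3 counts over the sh902 group, it was at least 81.4-fold higher in sh900. Cxcl1, a chemokine that draws neutrophils, stood at 2.59, 1.51 and 1.97 CPM with sh900 and 0.125, 0.171 and 0.0431 CPM with sh902, with no overlap, at -4.19 ± 0.51 (SE, edgeR adjusted p = 0.00957). Htr1b, a serotonin receptor, stood at 17.5, 43.3 and 2.74 CPM with sh900 and 1.5, 2.66 and 0.775 CPM with sh902. The 03_09 library of sh900 was the lowest of the 3, at about the level of the 30_08 library of sh902, and the log2 fold change was -3.45 ± 0.40 (SE, edgeR adjusted p = 0.00894). Astn2, a membrane protein of migrating neurons, stood at 15.2, 2.8 and 18.1 CPM with sh900 and 1.19, 0.343 and 3.1 CPM with sh902, where the 30_08 libraries were low with both hairpins and the ranges overlapped, at -3.13 ± 0.29 (SE, edgeR adjusted p = 0.00678). Cemip, a protein that breaks down hyaluronan, varied widely between labels: its level was 124, 535 and 24.7 CPM with sh900 and 16.7, 29.6 and 7.8 CPM with sh902, at -3.03 ± 0.54 (SE, edgeR adjusted p = 0.0308).

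Tnfsf18, a ligand of the TNF family, was -3.72 on the log2 scale, Col19a1, a collagen chain, -3.95, Cyp24a1, the enzyme that inactivates vitamin D, -3.23, and Gstt3, a glutathione transferase, -3.03. Car10, Nefl, the light neurofilament chain, and Ahrr, the repressor of the aryl hydrocarbon receptor, were at -3.03, -3.02 and -2.96. The ranges of the hairpins overlapped for Col19a1, Astn2, Cemip and Nefl. Of the 12 genes, 8 kept their call whichever library was left out. Htr1b, Car10 and Nefl were lost without the undated sh902 library, and Cemip without either undated library.

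**Figure D4:**
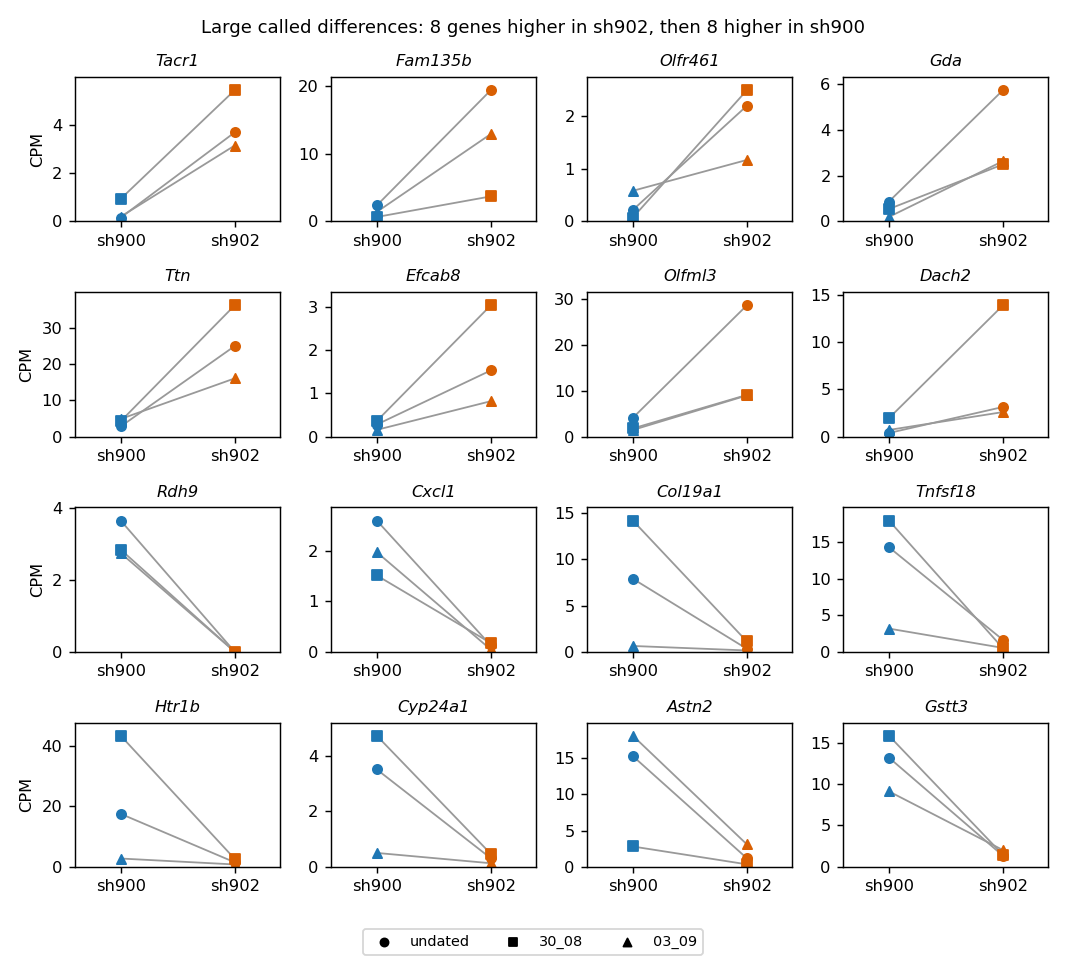
CPM of 8 named genes with a large fold higher in sh902 (upper rows) and 8 higher in sh900 (lower rows) in each library, with the pair of each label joined; each axis starts at 0. The genes were chosen among those with the same direction at all 3 labels. That all 3 lines of a gene slope the same way therefore follows from the choice and is not separate evidence. Rdh9 is at 0 in the 3 sh902 libraries.

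Among the called genes with the most counts were 2 D-type cyclins, in opposite directions. Cyclins D1 and D2 drive the kinases CDK4 and CDK6 that start the passage from G1 into S phase. Ccnd1 (chromosome 7, 144929931 to 144939925) stood at 792, 813 and 269 CPM with sh900 and 2119, 2843 and 849 CPM with sh902. It was higher with sh902 in every pair, with no overlap, although both 03_09 libraries were low, at 1.56 ± 0.14 (SE, edgeR adjusted p = 0.00678). Ccnd2 (chromosome 6, 127125162 to 127152193) stood at 4042, 4554 and 2037 CPM with sh900 and 1648, 1315 and 1472 CPM with sh902. Here every sh900 library was above every sh902 library and the 03_09 pair was closest, at -1.26 ± 0.27 (SE, edgeR adjusted p = 0.0294). The call of Ccnd1 held in all 6 fits that left out 1 library, and that of Ccnd2 was lost without any 1 of the undated and 30_08 libraries. Ccnd3 was not called (0.39). The others with the most counts were Trp53inp1 and Hmgcs1, both higher in sh902 and described with their lists, and Eif4g2, a translation factor, and the protocadherin gene Pcdhgc3, both higher in sh900. Eif4g2 stood at 1685, 1940.2 and 1569.5 CPM with sh900 and 1119.9, 968 and 1148 CPM with sh902, at -0.75 ± 0.16 (SE, edgeR adjusted p = 0.0302), with no overlap, and its call too was lost without any 1 of the undated and 30_08 libraries.

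Of 26 genes of the G1/S transition tested, 7 were called higher in sh902 and 1, Ccnd2, higher in sh900 (30.8% in all). The share over all genes tested was 15.5%. Mycn, a MYC family factor of neural progenitors, stood at 5.22, 2.15 and 12 CPM with sh900 and 21.2, 8.01 and 34.9 CPM with sh902. The 30_08 libraries were low with both hairpins, and within each label sh902 was higher, at 1.74 ± 0.15 (SE, edgeR adjusted p = 0.00678). The called genes were not all drivers of the cycle: Cdkn2c, which encodes the CDK4 and CDK6 inhibitor p18, was higher by 0.71 and Cdkn2b, for the inhibitor p15, by 0.56. Ccne2, a cyclin of S phase entry, was higher by 0.62, Rbl1, a relative of the retinoblastoma protein, by 0.48, and Cdc25a, a phosphatase that activates cyclin-dependent kinases, by 0.45. Without either undated library 2 genes of the list were called.

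Genes of DNA replication were called in 1 direction. Of 50 members tested, 18 were called higher in sh902 (36%, against 6.58% of all genes) and 0 higher in sh900, and the median log2 fold change was 0.42 against 0.01 over all genes tested. Rrm2, the small subunit of ribonucleotide reductase that makes deoxynucleotides, stood at 71.9, 34.5 and 52.4 CPM with sh900 and 126, 88.3 and 112 CPM with sh902, with no overlap, at 1.02 ± 0.13 (SE, edgeR adjusted p = 0.0108). Subunits of the MCM helicase, which unwinds DNA at the fork, were called in part: Mcm5 (0.61 ± 0.12), Mcm6 (0.61 ± 0.13) and Mcm7 (0.69 ± 0.11) were called, while Mcm2 (0.38), Mcm3 (0.25) and Mcm4 (0.41) were not. Mcm7 stood at 101, 61.6 and 87.2 CPM with sh900 and 156, 118 and 144 CPM with sh902. Called genes of the polymerases included Pola1 (0.44 ± 0.10), Pola2 (0.46 ± 0.11), Pold1 (0.47 ± 0.12), Pold2 (0.58 ± 0.11) and Prim1 (0.68 ± 0.17), and called too were Pcna (0.43 ± 0.11), the sliding clamp, and Lig1 (0.55 ± 0.10), the ligase that joins lagging-strand fragments. Orc2, of the origin recognition complex, went the other way at -0.61 and was not called.

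Genes of this kind are known targets of E2F factors, so the bases before their start sites were searched for the E2F motifs TTTGGCGC and TTTCCCGC on both strands. The sequences are from RefSeq on GRCm38.p6 and cover the 250 bases before each start. Of 50 members 41 had an entry, and 6 of these (14.6%) held a match, against 2.82% of 11086 tested genes with an entry and 1.51% of all 27025. The list is of known E2F targets, so its higher share says nothing of the difference between the hairpins. Of the 27025 genes, 11284 had an entry whose bases after the start open an annotated transcript, so some starts are uncertain. Members that were called and held a match were Mcm5, Mcm6, Mcm7 and Pola1. Other called members, among them Rrm2, Lig1 and Pcna, had an entry without a match. Those of Mcm6 (chr1:128359706-128359955, minus strand) and Pola1 (chrX:93632156-93632405, minus strand) are shown because Mcm6 was the called member with 2 matches and Pola1 encodes the catalytic subunit of the polymerase that starts each strand. Capitals mark the matches, which in Mcm6 end 102 and 39 bases before the start. In Pola1 the match is to the other strand and ends 130 bases before it. A match is a match of letters only, and no binding was measured.
Mcm6: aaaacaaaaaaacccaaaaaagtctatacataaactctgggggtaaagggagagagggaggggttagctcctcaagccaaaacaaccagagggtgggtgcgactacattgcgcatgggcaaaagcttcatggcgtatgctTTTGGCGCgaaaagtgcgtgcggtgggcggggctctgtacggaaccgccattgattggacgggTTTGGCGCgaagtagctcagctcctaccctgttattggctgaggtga
Pola1: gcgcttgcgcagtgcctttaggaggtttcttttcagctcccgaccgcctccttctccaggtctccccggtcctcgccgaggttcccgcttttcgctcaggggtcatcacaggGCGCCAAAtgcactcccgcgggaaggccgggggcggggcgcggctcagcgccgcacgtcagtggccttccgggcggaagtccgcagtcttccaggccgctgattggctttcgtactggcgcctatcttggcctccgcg

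Replication-dependent histones, made in S phase to package new DNA, had the largest share of called members of any list with 10 or more tested. Of 29 tested, 17 were called higher in sh902 (58.6%, against 6.58% of all genes) and 0 higher in sh900, with a median of 0.50. Hist1h4a stood at 226, 113 and 192 CPM with sh900 and 363, 189 and 298 CPM with sh902, a difference of 0.62 ± 0.10 (SE, edgeR adjusted p = 0.0168), and Hist2h4 at 49.1, 22 and 31.8 CPM with sh900 and 74.8, 38.5 and 57.3 CPM with sh902, at 0.68 ± 0.11 (SE, edgeR adjusted p = 0.016). The 30_08 libraries were low with both hairpins, so the ranges overlapped for both genes, while sh902 was higher within every label. Histone genes are near copies of each other and reads can be shared between them, so single members are uncertain and do not count as separate results.

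Mitosis genes were likewise called in 1 direction. Of 46 tested, 10 were called higher in sh902 (21.7%, against 6.58% of all genes) and 0 higher in sh900, with a median of 0.27. Of the 46, 45 had a positive fold change. Birc5, which encodes the survivin subunit of the chromosomal passenger complex, stood at 20.6, 8.11 and 18.3 CPM with sh900 and 36.7, 22.5 and 31.9 CPM with sh902, with no overlap, at 0.96 ± 0.16 (SE, edgeR adjusted p = 0.0154). Cdk1, the kinase that drives entry into mitosis, stood at 65.4, 30.8 and 51.2 CPM with sh900 and 94.9, 49.9 and 87.9 CPM with sh902, where the lowest library of sh902 lay below the highest of sh900, at 0.60 ± 0.11 (SE, edgeR adjusted p = 0.0206). Mki67, a marker of cycling cells, was higher by 0.48 ± 0.12 (SE, edgeR adjusted p = 0.0396). Top2a, Ccnb1 and Plk1 had positive values of 0.32, 0.28 and 0.36 and were not called.

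In each of these lists of cycle genes the median was positive at all 3 labels: 0.30, 0.38 and 0.45 for replication, 0.30, 0.49 and 0.63 for the histones and 0.16, 0.24 and 0.45 for mitosis. The counts of called members were lower without the undated libraries. With the undated sh900 library left out 1 replication gene, 3 histones and 1 mitosis gene were called, and with the undated sh902 library left out 1, 1 and 1. At an unadjusted p under 0.05, 1 replication gene and no histone or mitosis gene was higher in sh900; DESeq2 called 1 replication gene higher in sh900 and limma-voom 0. Without either 30_08 library 6 and 5 mitosis genes were called, without the 03_09 library of sh902 9 histones were called higher in sh902, and without either 03_09 library 1 replication gene and 1 histone were called higher in sh900. Rrm2, Birc5 and Hist2h2ac kept their call in all 6 such fits.

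**Figure D5:**
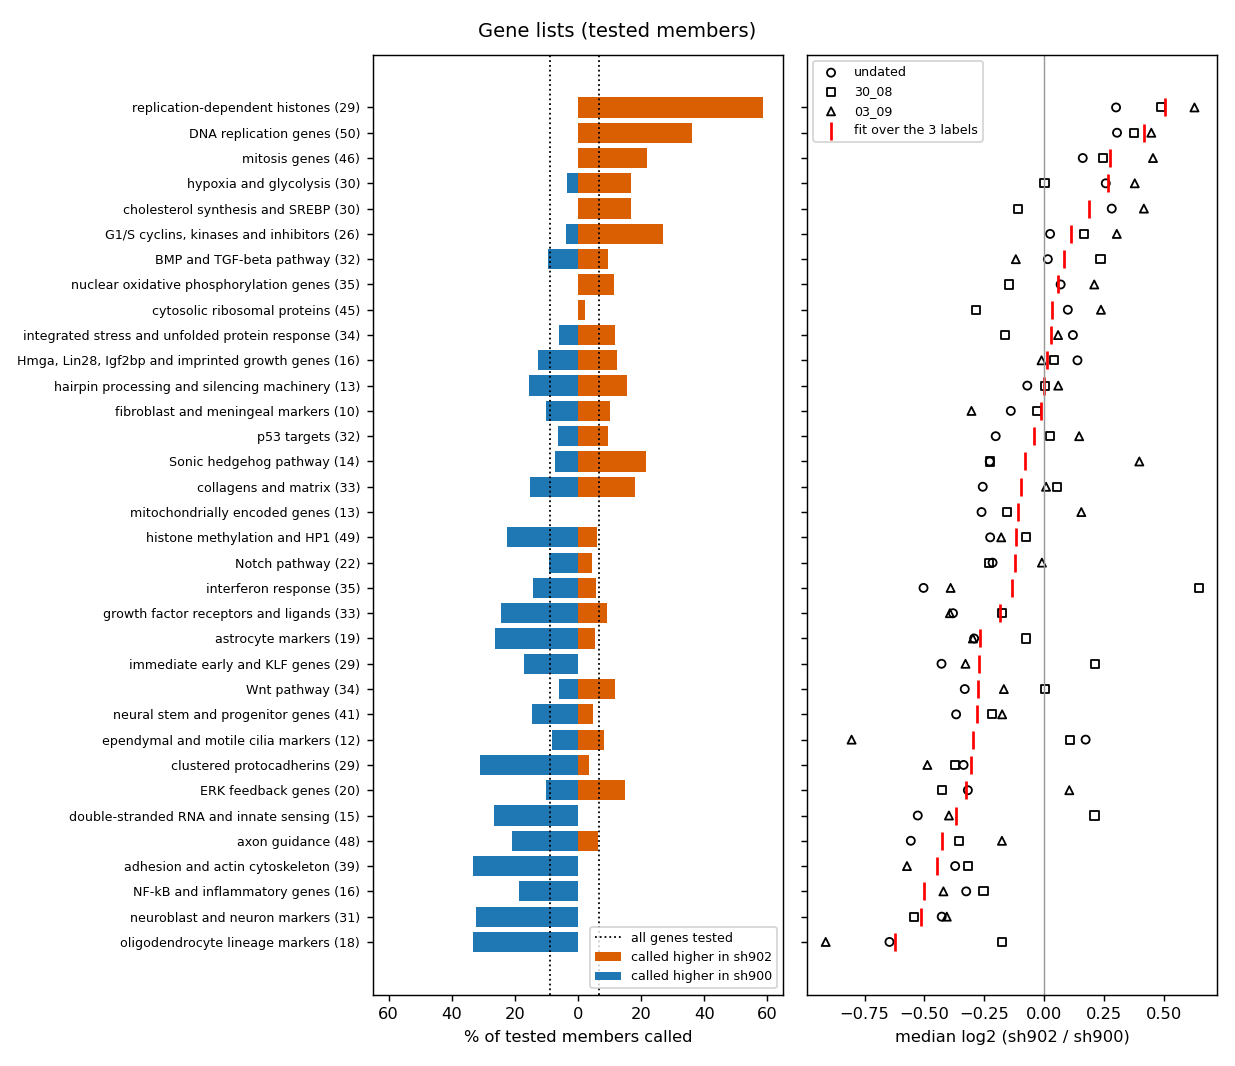
Left, the share of tested members of each list called higher in sh902 (orange, to the right) or in sh900 (blue, to the left), with dotted lines at the share over all genes tested (6.58% and 8.95%). Right, the median log2 ratio of each list at each label (open symbols) and in the fit (red bar), from 0.50 for the histones at the top to -0.62 for the oligodendrocyte lineage at the bottom, with numbers of tested members beside the names.

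Markers of neuroblasts and neurons that were called were lower with sh902. Of 31 tested, 10 were called higher in sh900 (32.3%, against 8.95% of all genes) and 0 higher in sh902, with a median of -0.51. In bulk RNA fewer cells of a type and less RNA per cell cannot be told apart. Ina, a neuronal intermediate filament, stood at 4.2, 7.39 and 10.8 CPM with sh900 and 1.53, 1.84 and 3.19 CPM with sh902, with no overlap, at -1.81 ± 0.23 (SE, edgeR adjusted p = 0.0101). Tubb3, the tubulin of young neurons, stood at 4.38, 2.84 and 21 CPM with sh900 and 1.78, 1.16 and 5.43 CPM with sh902, highest at 03_09 with both hairpins, at -1.61 ± 0.22 (SE, edgeR adjusted p = 0.0113). Syn1, a protein of synaptic vesicles, stood at 7.35, 10.5 and 5.48 CPM with sh900 and 1.81, 3.64 and 2.63 CPM with sh902, at -1.61 ± 0.26 (SE, edgeR adjusted p = 0.0148), a call lost without either undated library. Among regulators, Sox4 (-0.71), Insm1 (-0.66) and the GABA-synthesising enzyme Gad1 (-0.67) were called lower with sh902. Dcx, a marker of migrating neuroblasts, was not called (-0.51, edgeR adjusted p = 0.44), nor was Map2 (-0.28), and Elavl3 (0.70) and Syt1 (0.60) had positive values and were not called. At an unadjusted p under 0.05, 2 members were higher in sh902, and DESeq2 and limma-voom called 0 in that direction. Of the list, 4 members were called without the undated sh900 library, 3 without that of sh902 and 6 without the 30_08 library of sh900, all higher in sh900, and without either 03_09 library 1 was called higher in sh902.

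Of 18 oligodendrocyte lineage markers tested, 6 were called higher in sh900 (33.3%, against 8.95% of all genes) and 0 higher in sh902. The median log2 fold change was -0.62. Tnr, the matrix protein tenascin R, stood at 319, 260.3 and 225 CPM with sh900 and 167, 76.2 and 77 CPM with sh902, with no overlap, at -1.49 ± 0.17 (SE, edgeR adjusted p = 0.0091). Lhfpl3 stood at 58.1, 71.3 and 85.1 CPM with sh900 and 20.6, 35.2 and 41.1 CPM with sh902, at -1.26 ± 0.14 (SE, edgeR adjusted p = 0.00858). Myrf, the factor that drives myelin genes, and Gpr17, a receptor of maturing precursors, were called lower with sh902, at -1.29 ± 0.32 and -1.58 ± 0.42. Gpr17 did not have 1 direction: it stood at 4.66, 0.574 and 93.7 CPM with sh900 and 2.0, 0.814 and 17.8 CPM with sh902, higher with sh902 at 30_08, where both libraries were under 1 CPM. Olig1 (-0.70), Olig2 (-0.66), Sox10 (-0.98) and Pdgfra (-0.47) had negative values and were not called. Without the undated library of either hairpin 2 members were called. In the fit of all 6 libraries no member was higher in sh902 at an unadjusted p under 0.05. Without the 03_09 library of sh902, 1 member was called higher in sh902.

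Astrocyte markers were mixed. Of 19 tested, 5 were called higher in sh900 and 1, Id3, higher in sh902 (31.6% in all, against 15.5% of all genes), and 2 and 1 were called without the undated library of sh900 and sh902. Clu, the secreted chaperone clusterin, stood at 55.4, 18 and 277 CPM with sh900 and 13.7, 3.55 and 66.9 CPM with sh902. It varied more than 10-fold between labels with each hairpin, and within each label sh902 was lower by a log2 ratio of -2.11, -2.43 and -2.06, at -2.18 ± 0.12 (SE, edgeR adjusted p = 0.00678). Slc1a2, the main glutamate transporter of astrocytes, stood at 196, 110.4 and 859.7 CPM with sh900 and 122, 40.8 and 545 CPM with sh902, at -0.99 ± 0.19 (SE, edgeR adjusted p = 0.0213), a call lost without the undated sh902 library. Gfap, the filament of astrocytes, was not called (0.20), and Aqp4 (-0.10) and Aldh1l1 (0.27) were not called either. Among 41 neural stem and progenitor genes tested, 8 were called (19.5%): 2 were called higher in sh902, Mycn and Sox1 (0.62), and 6 higher in sh900, among them Nfib (-0.54), Otx2 (-0.60) and Pou3f3 (-0.70). Nes (0.07), Pax6 (0.10) and Sox2 (-0.33) were not called. Of this list 1 gene was called without either undated library, and 13 without the 03_09 library of sh900.

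Markers of cells of other kinds were called at shares of 0 to 33.3%, against 15.5% of all genes, on lists of 3 to 10 tested members. Of 6 endothelial markers tested edgeR, DESeq2 and limma-voom each called 0, with 1 at an unadjusted p under 0.05 and 1 called without either 30_08 library, and 1 of 3 microglial markers, Cd68 (1.1), was higher in sh902 with its call lost in every fit that left out a library. Of 6 mural markers tested, Cspg4 and Acta2 were higher in sh900, and Cspg4 is also among the called oligodendrocyte lineage markers. The summed level of the mural list was 289 to 444 CPM with sh900 and 231 to 273 CPM with sh902. Neither Cspg4 nor Acta2 was called without either undated library. Fibroblast markers had 1 of 10 called each way, Col6a1 (1.77) and Thy1 (-1.59), and 0 without the undated sh902 library. The part of such cells in the results was not tested.

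Adhesion and actin genes that were called were lower with sh902. Of 39 tested, 13 were called higher in sh900 (33.3%, against 8.95% of all genes) and 0 higher in sh902, with a median of -0.45. The median was negative at each label (-0.37, -0.32 and -0.57). Vcl, which encodes vinculin, the protein that ties integrin adhesions to actin, stood at 238, 351 and 158 CPM with sh900 and 97.8, 113 and 70.4 CPM with sh902. The groups did not overlap, at -1.43 ± 0.14 (SE, edgeR adjusted p = 0.00678). Itga1 and Itga2, the collagen-binding integrin chains, stood at -1.07 and -1.79 on the log2 scale, and both calls held in all 6 fits that left out 1 library, as did those of Vcl and Cav1 (-1.1), the coat protein of caveolae. Ccn2, a matricellular growth factor, was lower with sh902, at -2.15 ± 0.33, and Anxa1 and Anxa2, annexins that bind membranes, at -1.18 ± 0.21 and -0.89 ± 0.12. Itgb1, the common beta chain of these integrins, was not called (0.15). With the undated library of sh900 or sh902 left out 6 and 4 members were called. In the direction of sh902, 1 member had an unadjusted p under 0.05, limma-voom called 1 and DESeq2 called 0. Without either 03_09 library edgeR called 2 members higher in sh902.

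Collagen and matrix genes split: 6 of 33 tested were called higher in sh902 and 5 higher in sh900 (33.3% in all, against 15.5% of all genes). The number called was 7 and 3 without the undated library of sh900 and sh902 and 18 without either 03_09 library. Col4a2, a basement membrane collagen, stood at 21.9, 5.85 and 16.8 CPM with sh900 and 44.5, 37.6 and 38.2 CPM with sh902, at 1.52 ± 0.30 (SE, edgeR adjusted p = 0.0242), and its call was lost without either 03_09 library. Spp1, the secreted protein osteopontin, was higher with sh902 by 1.54 and Mmp2, a gelatinase, by 1.17. Col18a1, the collagen that holds endostatin, stood at 230.0, 216 and 90.8 CPM with sh900 and 71, 68.3 and 51.3 CPM with sh902, with no overlap, at -1.47 ± 0.20 (SE, edgeR adjusted p = 0.0115). Vcan, the proteoglycan versican, was lower with sh902, at -0.99 ± 0.13.

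Axon guidance genes, whose products steer growing neurites and migrating cells, were called in both directions. Of 48 tested, 10 were called higher in sh900 and 3 higher in sh902 (27.1% in all), with a median of -0.43, and 5 were called without either undated library and 20 without either 03_09 library. Nrp1, the co-receptor of class 3 semaphorins and VEGF, stood at 75.1, 77.3 and 51.1 CPM with sh900 and 29, 36 and 18.4 CPM with sh902, with no overlap, at -1.38 ± 0.11 (SE, edgeR adjusted p = 0.00678). Ntn1, the guidance cue netrin 1, and Robo1, a receptor of SLIT proteins, were lower with sh902, at -0.97 ± 0.15 and -0.78 ± 0.11. Unc5b, a netrin receptor, went the other way, standing at 24.3, 29.8 and 10.9 CPM with sh900 and 49.1, 62.7 and 25.3 CPM with sh902, at 1.03 ± 0.12 (SE, edgeR adjusted p = 0.00894). Of 29 clustered protocadherins tested, 9 were called higher in sh900 and 1, Pcdhac2 (0.74), higher in sh902 (34.5% in all, against 15.5% of all genes). Without the undated library of sh900 and sh902, 4 and 3 were called. Pcdhga2 stood at 20.4, 17.7 and 24 CPM with sh900 and 6.66, 8.69 and 10.8 CPM with sh902, at -1.34 ± 0.16 (SE, edgeR adjusted p = 0.00957). Members of the gamma cluster share their last exons, so that their counts are not separate.

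Growth factors and receptors were called at 11 of 33 tested genes (33.3%, against 15.5% of all genes), 3 higher in sh902 and 8 higher in sh900. The number was 4 without the undated sh900 library, 3 without that of sh902 and 17 without the 03_09 library of sh900. Vegfa, the endothelial growth factor, stood at 33.8, 16.9 and 17.5 CPM with sh900 and 89.4, 54.8 and 32.2 CPM with sh902. At each label sh902 was above sh900, and the levels differed between labels with both hairpins, at 1.26 ± 0.15 (SE, edgeR adjusted p = 0.00957). Fgf1, an FGF ligand, stood at 23.6, 14.1 and 23.5 CPM with sh900 and 4.66, 2.1 and 8.06 CPM with sh902, with no overlap, at -2.24 ± 0.26 (SE, edgeR adjusted p = 0.00894). Igfbp4, a binding protein of insulin-like growth factors, was lower with sh902, at -1.72 ± 0.16, as were Igf2 (-1.77 ± 0.31) and Bdnf (-1.07 ± 0.24). Receptors of the factors in the medium, Egfr (-0.15), Fgfr1 (0.32) and Fgfr2 (-0.28), were not called, and Fgfr3 was lower with sh902, at -0.59 ± 0.15.

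In the Sonic hedgehog pathway 4 of 14 tested genes were called (28.6%), and 1 without either undated library. Of these, 3 were higher in sh902: the ligand Shh, the transducer Smo and the target gene Gli1. Shh stood at 8.49, 0.179 and 1.43 CPM with sh900 and 30.1, 0.942 and 5.73 CPM with sh902. The undated libraries were far above the others, and within each label sh902 was higher by a log2 ratio of 1.72, 1.93 and 1.94, at 1.90 ± 0.20 (SE, edgeR adjusted p = 0.0085). Smo was higher by 0.57 ± 0.10 (SE, edgeR adjusted p = 0.0193). Gli1 stood at 1.08, 0.395 and 0.193 CPM with sh900 and 5.03, 0.6 and 1.03 CPM with sh902, under 1.5 CPM in every library but the undated sh902 one, at 1.72 ± 0.46 (SE, edgeR adjusted p = 0.0481). Cdon, a co-receptor, was lower with sh902, at -0.70 ± 0.15, and Ptch1 (-0.22), the receptor and target gene, was not called. Among 34 Wnt genes tested, 4 were higher in sh902, led by Fzd4 (1.13), Wnt7b (0.84) and Fzd7 (0.66), and 2 higher in sh900, Fzd2 (-0.63) and Tcf7l2 (-0.60). Notch genes had 1 of 22 higher in sh902, the coactivator Maml1 (1.05), and 2 higher in sh900, Dll3 (-0.60) and Rfng (-0.56). BMP and TGF-beta genes had 3 of 32 in each direction. The shares called, 17.6% for Wnt, 13.6% for Notch and 18.8% for BMP and TGF-beta genes, were near the 15.5% of all genes. Without the undated sh900 library 1 gene of each was called, without that of sh902 0, 1 and 0, and without either 03_09 library 12 Wnt and 6 Notch genes. Without either 30_08 library 5 Notch genes were called.

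Genes of the silencing machinery were called in both directions. Of 13 tested, 2 were higher in sh902 and 2 higher in sh900 (30.8% in all, against 15.5% of all genes). Ago1, 1 of the 4 Argonaute proteins that carry small RNAs, stood at 264, 249 and 251 CPM with sh900 and 136, 96.4 and 164 CPM with sh902, with no overlap, at -1.05 ± 0.17 (SE, edgeR adjusted p = 0.0153). Ago3 was higher with sh902 by 0.59 ± 0.15 (SE, edgeR adjusted p = 0.041). Dicer1, which cuts hairpins, was lower, at -0.41 ± 0.10 (SE, edgeR adjusted p = 0.0405), and Prkra, its partner PACT, higher by 0.51 ± 0.12 (SE, edgeR adjusted p = 0.0381). Ago2, the Argonaute that cleaves its target, was not called (-0.00), nor were Drosha (-0.04) and Xpo5 (0.09). The call of Ago1 was lost without the undated sh902 library, which left 0 of the list called, and those of Ago3, Dicer1 and Prkra were each lost without any 1 of the undated and 30_08 libraries.

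Genes of double-stranded RNA and innate sensing, a list that also holds the DNA sensor Cgas and its adaptor Tmem173, were called in 1 direction. Of 15 tested, 4 were higher in sh900 (26.7%, against 8.95% of all genes) and 0 higher in sh902. In the direction of sh902 no member had an unadjusted p under 0.05. The median log2 ratio was -0.53 at the undated label, 0.21 at 30_08 and -0.40 at 03_09, and 0 members were called without either undated library. Oas1a, an activator of RNase L, stood at 25.2, 0.502 and 7.37 CPM with sh900 and 7.88, 0.0857 and 2.84 CPM with sh902. Its level varied widely between labels, with the 30_08 libraries under 1 CPM, and the log2 fold change was -1.67 ± 0.23 (SE, edgeR adjusted p = 0.0115). Eif2ak2, the kinase PKR, was lower, at -0.46 ± 0.10 (SE, edgeR adjusted p = 0.0315), as were Tlr3 and Ddx58, receptors of double-stranded RNA, at -0.83 ± 0.20 and -0.42 ± 0.11. Interferon-stimulated genes went in different directions at different labels: over 35 tested, the median log2 ratio was -0.50 at the undated label, 0.64 at 30_08 and -0.39 at 03_09. Of the 35, 5 were called higher in sh900 and 2 higher in sh902 (20% in all, against 15.5% of all genes). H2-D1, a class I antigen, stood at 287, 60.8 and 180.2 CPM with sh900 and 78.7, 23.9 and 62.9 CPM with sh902, at -1.65 ± 0.14 (SE, edgeR adjusted p = 0.00678), and Ifi202b at 9.79, 24.5 and 4.17 CPM with sh900 and 37.7, 89.7 and 9.78 CPM with sh902, at 1.64 ± 0.15 (SE, edgeR adjusted p = 0.00678); both belong to families of similar sequence. With either 30_08 library left out 17 interferon genes were called higher in sh900, and without either undated library 2.

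Histone methylation enzymes and HP1 proteins, the list that holds the KDM7 family, were called at 14 of 49 tested (28.6%, against 15.5% of all genes). Of these, 11 were higher in sh900 and 3 higher in sh902. Daxx, the H3.3 chaperone, stood at 42.2, 29 and 30.5 CPM with sh900 and 20.6, 11 and 20.8 CPM with sh902, with no overlap, at -1.06 ± 0.19 (SE, edgeR adjusted p = 0.0182). Its partner Atrx was lower, at -0.49 ± 0.12. Kdm1a, the demethylase LSD1, stood at 133, 135 and 147 CPM with sh900 and 91.6, 61.5 and 101 CPM with sh902, at -0.81 ± 0.16 (SE, edgeR adjusted p = 0.0229), and Kdm2a and Kdm5b were lower with sh902, at -0.66 ± 0.13 and -0.56 ± 0.11. Ehmt1, an H3K9 methyltransferase, was lower, at -0.71 ± 0.18, and its partner Ehmt2 was not called (-0.06). Cbx5, which encodes HP1 alpha, was higher with sh902, at 0.68 ± 0.15, and Cbx1 (0.15) and Cbx3 (0.11) were not called. Without the undated sh900 library 2 members were called and without the undated sh902 library 0.

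Of 32 p53 targets tested, 3 were higher in sh902 and 2 higher in sh900 (15.6%, against 15.5% of all genes), with a median of -0.04 that was 0.03 when scaled by library size alone. Ei24, an endoplasmic reticulum protein induced by p53, stood at 317, 449 and 253 CPM with sh900 and 102, 80.8 and 119.6 CPM with sh902. Every sh900 library was more than 2-fold above its sh902 partner, at -1.80 ± 0.27 (SE, edgeR adjusted p = 0.0131). Pmaip1, the pro-apoptotic protein NOXA, stood at 14.3, 12 and 12.5 CPM with sh900 and 36.3, 53.8 and 30.7 CPM with sh902, with no overlap, at 1.53 ± 0.18 (SE, edgeR adjusted p = 0.00957). Trp53inp1 and Zmat3 were higher with sh902, at 0.81 ± 0.19 and 0.58 ± 0.11, and Btg2 was lower, at -0.63 ± 0.15, while Cdkn1a, the p21 inhibitor, was not called (0.13, edgeR adjusted p = 0.595). The number of p53 targets called was 2 without either undated library and 11 without either 03_09 library. NF-kB and inflammatory genes had 3 of 16 higher in sh900 (18.8%, against 8.95% of all genes), Cxcl1, Csf1 (-1.03) and Ccl2 (-2.47). In the direction of sh902 0 were called, 2 had an unadjusted p under 0.05, and DESeq2 and limma-voom called 1 each. So did edgeR without either 30_08 library. Immediate early and KLF genes had 5 of 29 higher in sh900, led by Klf6 (-0.62) and Klf9 (-0.61), and 0 higher in sh902 by edgeR, DESeq2 or limma-voom. The share called, 17.2%, was near the 15.5% of all genes called in either direction (8.95% higher in sh900). The median was 0.21 at 30_08 against -0.43 and -0.33 at the other labels. Of these genes 0 were called without either undated library, and without either 03_09 library 2 were called higher in sh902.

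The metabolic lists had shares called in either direction near the 15.5% of all genes. They were 16.7% for cholesterol synthesis, 20% for hypoxia and glycolysis and 11.4% for oxidative phosphorylation. All these calls but 1, of the hypoxia list, were higher in sh902, a direction called at 6.58% of all genes. The median log2 ratios of the 3 lists at 30_08 were -0.11, 0.00 and -0.15. Cholesterol synthesis had 5 of 30 higher in sh902 and 0 higher in sh900, where DESeq2 and limma-voom called 1 each: Hmgcs1, the enzyme that makes HMG-CoA, stood at 519.8, 488 and 542 CPM with sh900 and 848, 980.5 and 857 CPM with sh902, at 0.72 ± 0.13 (SE, edgeR adjusted p = 0.018), with Hsd17b7 (0.69), Msmo1 (0.62), Fdft1 (0.55) and Mvd (0.46). None of these 5 was called without either undated library, and 10 members were called without either 30_08 library, while 3 were called higher in sh900 without either 03_09 library. Hypoxia and glycolysis genes had 5 of 30 higher in sh902, among them the phosphofructokinases Pfkl (0.85) and Pfkp (0.66), and 1 higher in sh900, Mxi1 (-0.41), and 2 genes were called without either undated library. Nuclear genes of oxidative phosphorylation had 4 of 35 higher in sh902, and 0 called without the undated sh902 library. Cycs, which encodes cytochrome c, stood at 159, 159.8 and 112 CPM with sh900 and 302, 293 and 239 CPM with sh902, with no overlap, at 0.89 ± 0.12 (SE, edgeR adjusted p = 0.0108), and Ndufs1 and Sdhd were higher, at 0.86 ± 0.14 and 0.79 ± 0.11. In the stress response list Mthfd2, a mitochondrial folate enzyme, stood at 7.29, 6.93 and 5.29 CPM with sh900 and 35.5, 19.8 and 15.8 CPM with sh902, at 1.73 ± 0.19 (SE, edgeR adjusted p = 0.0085). Of 34 members of that list 4 were called higher in sh902 and 2, Slc7a11 (-0.59) and Manf (-0.52), higher in sh900 (17.6% in all), with a median of -0.17 at 30_08, and 1 was called without either undated library. Of 45 ribosomal protein genes tested 1, Rpl23 (0.57), was called (2.22%), and of 13 genes of the mitochondrial genome edgeR, DESeq2 and limma-voom called 0, with 1 at an unadjusted p under 0.05 and a median of -0.11.

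Imprinted and growth genes had 2 of 16 called in each direction (25% in all, against 15.5% of all genes). In either direction, 1 and 0 were called without the undated library of sh900 and sh902 and 8 without either 03_09 library. Zim1 and Peg3, neighbouring imprinted zinc finger genes, were both higher with sh902: Zim1 stood at 2.41, 2.84 and 2.86 CPM with sh900 and 9.69, 9.51 and 6.33 CPM with sh902, at 1.57 ± 0.23 (SE, edgeR adjusted p = 0.0129), and Peg3 at 119, 119 and 159 CPM with sh900 and 203, 226 and 198 CPM with sh902, at 0.60 ± 0.13 (SE, edgeR adjusted p = 0.0303). Hmga2, a chromatin protein of fetal stem cells, stood at 49.4, 355 and 8.38 CPM with sh900 and 27, 109 and 6.46 CPM with sh902. The 30_08 libraries were highest with both hairpins, and within each label sh902 was lower, at -1.11 ± 0.25 (SE, edgeR adjusted p = 0.0325). H19 was not called (-0.06).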

How the data were processed

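The authors deposited estimated counts per gene as whole numbers, so no rounding was needed. The submitters' processing notes name FastQC, cutadapt, Trimmomatic 0.36, STAR 2.5.0a, RSEM and GRCm38 without roles or order; for the annotation release and the settings of the count the sources used here give nothing, and no label says that strand was kept. RSEM divides reads that match several genes between them by a model. Symbols and coordinates came from GENCODE M21 by Ensembl identifier (54165 of 54232 matched).

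Only the 6 hairpin libraries were used. Genes were filtered with edgeR 4.0.16's filterByExpr by hairpin (16707 genes, 99.89% of counts), scaled by TMM and tested with the robust quasi-likelihood F test with the label as a block, in R 4.3.3. SE is the log2 fold change over the square root of F, CPM is per library total, and log2 CPM used a prior count of 2. The scripts were tested on simulated data, where the calls of the fit with the label block held a larger share of unchanged genes than the threshold allows, so some calls here may be false beyond that rate. Precision at low counts is limited by counting: 1 count is 0.0309 to 0.0431 CPM. The floors cover counting error only, and do not allow for several reads copied by PCR from the same molecule. The SE comes from the fit, so it also holds the variation between libraries that the fit estimates.

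Libraries of the same label varied together, the undated ones least. Deviations from the hairpin means correlated at 0.657 between the 30_08 libraries, 0.655 between the 03_09 libraries and 0.428 between the undated ones, against -0.616 to -0.068 between libraries with different labels. Deviations cancel within a hairpin, so values between different labels tend to be negative. No 2 libraries were copies: the lowest chi-square per degree of freedom was 59.8, between the undated and 03_09 libraries of sh902. By that measure the undated pair was not close. It stood at 140, against 121 for the 30_08 pair, 60 for the 03_09 pair and 101 between the undated and 30_08 libraries of sh900.

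Genes were named by rule: the KDM7 family, the 12 largest called folds in each direction at a mean of 1 CPM or more with 1 direction at all labels and no numbered gene models, up to 3 called members of each of 39 lists in each direction by adjusted p, and the 3 called genes with the most counts in each direction; other list members are named as examples chosen after their values were seen, and some genes that the rule names are not reported here. The comparison, the lists and the rule were chosen with earlier results of these data known, so no list count is independent evidence. Alternatives were no block, DESeq2 1.42.0, limma-voom (limma 3.58.1), RLE factors, library size alone, 2 other filters, a 1.5-fold minimum, a fit of only the dated libraries, and the omission of single libraries.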

Additional observations from a re-analysis of the deposited data

How the results depend on the processing

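All 2595 called genes kept their direction without the replicate block, with limma-voom, DESeq2, a 1.5-fold minimum, RLE factors or scaling by library size. These settings estimate the same difference from the same 6 libraries, so the direction could hardly change and is not separate evidence. The number of calls did not hold. It was 0 without the replicate block, 124 with a minimum change of 1.5-fold (54 higher in sh902 and 70 higher in sh900), 753 in the dated libraries alone (303 and 450) and 0 there without the block (with 762 at an unadjusted p under 0.05), against 3036 with DESeq2, 2841 with limma-voom and 3887 without a filter (1629 and 2258). Leaving out 1 library gave 425 to 3756 calls, 170 to 1594 higher in sh902 and 255 to 2162 higher in sh900. Of these 6 fits, only in those without an undated library did the number fall below 2000. With the label as a block, a library without its partner adds nothing to the estimated difference between the hairpins. The 2 fits that leave out 1 or the other library of a label are therefore not separate checks. For 30_08 they gave 2126 and 2129 calls. Without both 30_08 libraries the number was 1946, and without both 03_09 libraries 3680 (1557 and 2123). These last 2 settings and the unpaired fit of the dated libraries were chosen after seeing the data. Scaling by library size alone moved the share of calls higher in sh902 from 42.4% to 53.1%, with the median of all genes at 0.08 on the log2 scale. Of the 152 named called genes, 48 kept the call whichever library was left out, 102 lost it when the undated sh902 library was omitted and 79 when that of sh900 was. Phf2 was not called in any of 18 alternatives, with log2 fold changes of 0.15 to 0.29 and adjusted p of 0.153 to 1. One sign at all 3 labels held for 62.5% of genes at 10 CPM or more, against 54.8% of all tested. The share of variance between hairpins was 20.3% over the 2000 most variable genes, 25% over all genes and 15.2% with library size alone. The cause of these changes was not tested.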

Other observations

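Beside Rdh9, 2 genes had 0 counts in every library of 1 hairpin and at least 20 counts in each library of the other, both processed pseudogenes whose reads may come from a parent gene. Gm6565 (chromosome 6, 100604683 to 100605120) had 130, 169 and 108 counts with sh900 and 0 with sh902, at least 124-fold higher in sh900 against a floor of 3 counts over the group. Gm6361 (chromosome 15, 31446383 to 31446817) had 0 with sh900 and 107, 62 and 68 counts with sh902, at least 86.7-fold higher in sh902 against the same floor.

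Few called genes had nearly all their variance between the hairpins. Among 716 called genes with at least a 2-fold change and 1 CPM, 30 had over 95% of their variance between the hairpins, of which 26 were not numbered gene models. St5 stood at 128, 114 and 126 CPM with sh900 and 56, 58.6 and 55.4 CPM with sh902, so that the 3 libraries of a hairpin were close to each other and the hairpins were about 2-fold apart (-1.18 ± 0.11 (SE, edgeR adjusted p = 0.00678)). Pign, an enzyme of GPI anchor synthesis, stood at 62.9, 62.6 and 65.4 CPM with sh900 and 140.2, 158 and 133 CPM with sh902, at 1.1 ± 0.11 (SE, edgeR adjusted p = 0.00678). Tmed3, a protein of vesicle transport from the endoplasmic reticulum, stood at 16.8, 15.3 and 15.7 CPM with sh900 and 64.7, 78.3 and 52.6 CPM with sh902, at 1.95 ± 0.14 (SE, edgeR adjusted p = 0.00678), and Pno1, a ribosome assembly factor, at 13.6, 12.3 and 15.5 CPM with sh900 and 52, 53.7 and 40.2 CPM with sh902, at 1.74 ± 0.15 (SE, edgeR adjusted p = 0.00678). Lman1, a cargo receptor of the same secretory route, was higher with sh902 by 1.01 and Etv3, an ETS family repressor, lower, at -1.20. These genes were chosen after their values were seen.

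Genes of the aryl hydrocarbon receptor, a factor that senses aromatic compounds, were called in part. Ahr stood at 12.8, 31.1 and 8.45 CPM with sh900 and 2.59, 6.42 and 2.07 CPM with sh902, with no overlap, at -2.28 ± 0.16 (SE, edgeR adjusted p = 0.00678). Its repressor Ahrr stood at 2.01, 5.81 and 2.01 CPM with sh900 and 0.188, 0.471 and 0.603 CPM with sh902, at -2.96 ± 0.47 (SE, edgeR adjusted p = 0.0144), and its target Cyp1b1 at 6.14, 0.969 and 35.2 CPM with sh900 and 1.81, 0.428 and 13.6 CPM with sh902, at -1.54 ± 0.20 (SE, edgeR adjusted p = 0.0107). The target Cyp1a1 was not called (-2.79, edgeR adjusted p = 0.0828), nor were Nqo1 (-0.49) and Tiparp (0.31), whose sign was the opposite. This group was picked after its values were seen. A small RNA gene model, Gm26315, stood at 0.587, 1.29 and 15106 CPM with sh900 and 11282, 1.03 and 12612 CPM with sh902, high in both 03_09 libraries, near 1 CPM in both 30_08 libraries and split between the undated ones.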
